A study of Homo sapiens with 8 samples.

Results

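The DNA replication machinery was followed through a set of 43 genes, chosen by gene symbol from a table of 60664 human genes. The set holds the MCM2 to MCM7 helicase, its partners CDC45, GINS and MCM10, the factors that license and fire origins, DNA polymerases alpha, delta and epsilon, the PCNA clamp with its RFC loader, FEN1 and LIG1, RPA, the fork protection factors and the CAF-1 chromatin assembly factor. All 43 genes passed the filter on low values and were among the 14899 genes tested. The table has 44 rows for them, because POLA2 is listed under a second identifier (ENSG00000285816) for an overlapping gene with 1 to 19 reads per library, which stayed under the filter and was not tested.

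The study asked why acute myeloid leukemia cells that have become resistant to decitabine (DAC) no longer respond to the drug. RNA was sequenced from parental THP-1 cells, a human acute monocytic leukemia cell line labelled as wild type, and from a DAC-resistant THP-1 line that had been derived from them by repeated cycles of DAC and then kept without the drug. Cells of each line received DMSO or 1 µM DAC for 6 days, which gave 4 groups, with 2 libraries per group that the labels call biological replicates. All values come from a single cell line and a single resistant derivative, so that differences between the lines are differences between these 2 cultures, and fewer cells in S phase and less RNA per cell cannot be told apart in bulk RNA.

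DNA replication starts when ORC, CDC6 and CDT1 load the MCM2 to MCM7 ring onto origins in G1 phase, with geminin (GMNN) as the inhibitor of CDT1. In S phase the kinase CDC7, CDC45, GINS and MCM10 turn the ring into an active helicase, polymerase alpha with its primase starts new strands, and polymerases epsilon and delta extend them with the PCNA clamp. Many of these genes are targets of E2F transcription factors. DAC, a deoxycytidine analogue, acts after it has been built into DNA by this machinery, where it traps DNA methyltransferases.

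Sequencing depth was alike between groups, with 28717841 to 33416782 recovered reads on genes per library, and both parental libraries with DAC were the least deep. The share of listed genes above 0 was 51.0% and 51.1% in those libraries and 43.0% to 45.2% in the other 6. Each replication gene tested rested on 298 to 16778 recovered reads per library. The recovered reads were whole numbers in all libraries for 33 of the 43 genes. Those of POLA2 and MCM4, which set the ends of the range, were not, so these ends are approximate. The 10 monocytic markers each reached 1 FPKM in at least 1 library, with CD68 at 1.53 FPKM or less in all 8, and their summed level was 231 FPKM in both parental libraries with DMSO. With DAC that sum was 338 and 340 FPKM. In the DAC-resistant line it was 151 and 154 FPKM under DMSO, and 170 and 171 FPKM under DAC.

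FPKM values, reads scaled by gene length and by library total, placed the replication genes among the more abundant transcripts. In parental cells with DMSO their group means ran from 1.31 FPKM for POLA2 to 95.4 FPKM for MCM3 with a median of 17.7 FPKM, against a median of 4.44 FPKM over all genes tested. MCM3, the largest value, was followed by the clamp PCNA (67.3 ± 1.9 FPKM, SD, n = 2), then by MCM6 and FEN1 at 54.6 and 53.3 FPKM and by MCM4, MCM7 and CDT1 at 50.3, 49.2 and 48.2 FPKM. Neighbours within this pair and within this trio differed by no more than about the spread between replicates. The licensing inhibitor GMNN stood at 7.09 ± 0.18 FPKM, polymerase alpha's catalytic subunit POLA1 at 3.55 ± 0.31 FPKM and GINS3 at 2.94 ± 0.20 FPKM. These levels rest on the annotated exon length of each gene, and POLA2, PRIM1, TIPIN and POLD1 are uncertain because 16.8%, 15.1%, 21.1% and 8.63% of their exon bases are shared with another gene on the same strand. MCM2 and GINS4 share 23.6% and 23.4% of their exon bases with genes on the other strand, which matters only if the counting ignored strand.

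RefSeq promoters (GRCh38.p14) were found for 37 of the 43 genes. MCM4, MCM5, GINS4, POLD3, RPA2 and RPA3 had no entry. The 6 genes printed here are those with an entry and the largest fold changes in any comparison, and each line gives the 250 bases before the annotated start, 5′ to 3′. Capitals mark the E2F letters TTTCCCGC, TTTGGCGC or TTTCGCGC on either strand.
CDT1: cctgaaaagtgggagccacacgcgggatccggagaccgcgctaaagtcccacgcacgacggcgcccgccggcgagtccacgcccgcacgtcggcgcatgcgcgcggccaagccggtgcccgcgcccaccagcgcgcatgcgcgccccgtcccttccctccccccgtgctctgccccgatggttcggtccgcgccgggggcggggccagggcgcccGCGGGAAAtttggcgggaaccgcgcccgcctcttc
GMNN: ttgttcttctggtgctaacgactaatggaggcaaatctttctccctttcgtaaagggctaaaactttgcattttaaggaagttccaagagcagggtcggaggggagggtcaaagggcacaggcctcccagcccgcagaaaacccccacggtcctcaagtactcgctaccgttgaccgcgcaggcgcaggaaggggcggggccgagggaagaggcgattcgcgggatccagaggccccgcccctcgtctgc
POLD2: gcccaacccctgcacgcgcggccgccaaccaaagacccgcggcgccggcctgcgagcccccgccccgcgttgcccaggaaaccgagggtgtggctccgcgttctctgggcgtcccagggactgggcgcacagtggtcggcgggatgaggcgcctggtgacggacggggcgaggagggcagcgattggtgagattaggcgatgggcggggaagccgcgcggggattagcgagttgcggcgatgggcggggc
GINS1: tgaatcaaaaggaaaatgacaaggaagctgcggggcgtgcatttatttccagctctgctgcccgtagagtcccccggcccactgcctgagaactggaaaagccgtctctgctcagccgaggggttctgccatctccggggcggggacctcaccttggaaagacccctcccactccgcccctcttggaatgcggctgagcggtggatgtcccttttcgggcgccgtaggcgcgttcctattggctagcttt
RFC3: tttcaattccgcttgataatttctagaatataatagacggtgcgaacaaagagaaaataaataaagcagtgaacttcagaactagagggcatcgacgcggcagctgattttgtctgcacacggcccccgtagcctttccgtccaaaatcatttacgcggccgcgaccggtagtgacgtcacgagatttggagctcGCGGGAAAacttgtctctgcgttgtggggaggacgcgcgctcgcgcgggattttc
POLE: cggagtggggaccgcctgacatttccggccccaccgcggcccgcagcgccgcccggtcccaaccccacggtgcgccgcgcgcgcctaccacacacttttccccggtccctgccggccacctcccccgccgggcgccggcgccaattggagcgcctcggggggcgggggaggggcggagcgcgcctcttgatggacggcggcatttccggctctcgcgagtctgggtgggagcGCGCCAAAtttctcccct
The windows lie at chr16:88803539-88803788, plus strand for CDT1, chr6:24774687-24774936, plus strand for GMNN, chr7:44123549-44123798, minus strand for POLD2, chr20:25407423-25407672, plus strand for GINS1, chr13:33817899-33818148, plus strand for RFC3 and chr12:132687343-132687592, minus strand for POLE. The E2F letters begin 35 bases before the start in CDT1, 55 in RFC3 and 18 in POLE, and these letters are not in the windows of GMNN, POLD2 and GINS1. Over such windows, with the first promoter listed for each gene, the E2F letters were in 11 of 37 replication genes (29.7%) and in 2.38% of all 27305 promoters. CCAAT, searched on both strands, was in 22 of 37 (59.5%) against 33% of all promoters. The cell cycle homology letters TTTGAA, searched likewise, were in 0 of 37, against 13.6% of all promoters. These shares were not matched for base composition. The share of G and C in the windows of the replication genes ran from 39.6% for PRIM2 to 79.2% for GINS2. The 11 genes with E2F letters were CDT1, GINS2, LIG1, MCM3, MCM6, MCM7, PCNA, POLA1, POLA2, POLE and RFC3. A match is a description of the letters and not a bound site.

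In parental cells, 6 days of DAC lowered at least 1 replication gene in every functional group, with CDT1 falling furthest. With limma's test on log2(FPKM + 1) and Benjamini-Hochberg adjustment over all genes tested, 25 of the 43 genes were lower, 4 were higher (POLE, RPA2, TIPIN and MCM4) and 14 were not called at an adjusted p under 0.05. Over all genes tested, 24.1% were lower and 33.6% were higher. The higher replication genes numbered 2 under TPM, quantile normalization, upper-quartile scaling and voom. They also numbered 2 without parental DMSO replicate 1 or parental DAC replicate 2. Under these settings 26.8% to 31.6% of all genes tested were higher. The median log2 fold change was -0.22 over the replication genes and 0.06 over all genes tested. Their summed level went from 955 and 952 FPKM in DMSO to 828 and 834 FPKM in DAC, so the libraries of the groups were apart. By the study's stricter thresholds, which ask for a log2 fold change of 1 or more in either direction with an unadjusted p no higher than 0.01, CDT1 alone was lower, against 2.64% of all genes tested.

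**Figure D1:**
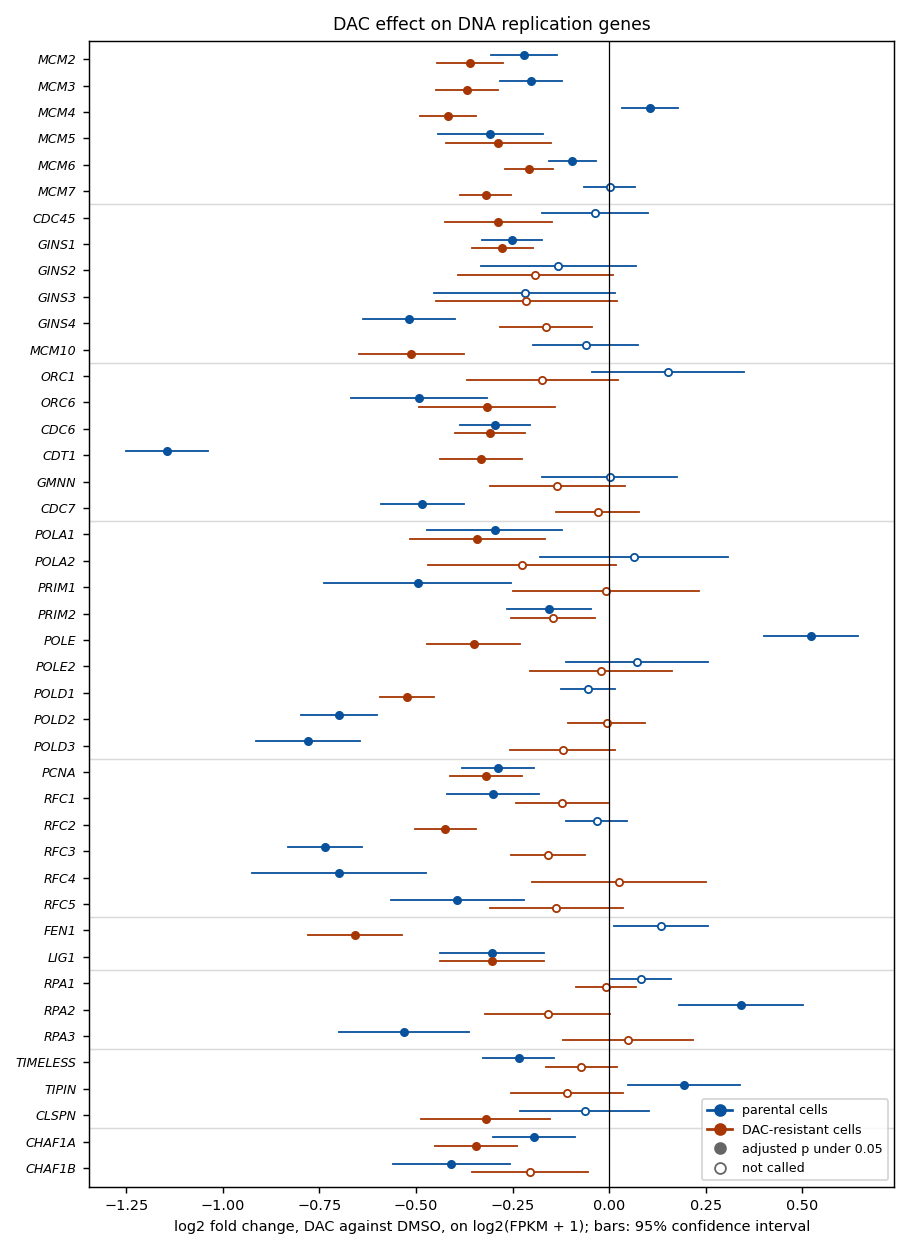
Log2 fold change of each of the 43 replication genes with DAC against DMSO in parental cells (blue) and in DAC-resistant cells (brown), on log2(FPKM + 1), with 95% confidence intervals as bars and 2 libraries per group. Filled points have an adjusted p under 0.05. In parental cells the genes spread from -1.15 for CDT1 to 0.52 for POLE, and in DAC-resistant cells 41 of the 43 points lie below 0.

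Within origin licensing and firing, 4 of 6 genes fell. CDT1, which loads the helicase onto origins, measured 49.8 and 46.6 FPKM with DMSO and 20.9 and 21.6 FPKM with DAC, a log2 fold change of -1.15 ± 0.04 (SE, adjusted p = 3.3e-06). The parental DAC libraries thus held 44.1% of the control level. ORC6, a subunit of the origin recognition complex, the kinase CDC7 and the loading factor CDC6 fell by 0.49, 0.48 and 0.30 on the log2 scale. The CDT1 inhibitor GMNN gave 7.22 and 6.97 FPKM with DMSO and 6.82 and 7.39 FPKM with DAC, groups that overlap, with a 95% confidence interval of the log2 fold change from -0.17 to 0.18. The ratio of CDT1 to GMNN, chosen after its values were seen, was 6.90 and 6.69 with DMSO and 3.06 and 2.92 with DAC. ORC1, the largest origin recognition subunit, was not called (0.15, adjusted p = 0.15).

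In the helicase core 4 of 6 genes fell, all by less than 0.32 on the log2 scale. MCM5 had the largest change of the ring subunits, from 24.0 and 23.4 FPKM to 19.5 and 18.4 FPKM (log2 fold change -0.31, adjusted p = 0.0035). MCM2 went from 29.6 and 28.0 to 24.5 and 24.6 FPKM (-0.22) and MCM3 from 95.9 and 94.9 to 80.5 and 85.1 FPKM (-0.20), again with the groups apart. MCM6 fell by 0.10, a call lost without a trend in limma's moderation and without parental DMSO replicate 2 or parental DAC replicate 2. MCM7 had a log2 fold change of 0.00 and an interval from -0.06 to 0.07. MCM4 was called higher by 0.11, but its call was lost under each of the other scalings tried and its direction turned under upper-quartile scaling. The MCM4 call was also lost without parental DMSO replicate 1 or parental DAC replicate 2. Among the partners that turn the ring into a helicase, GINS4 fell from 8.83 and 9.19 FPKM to 5.74 and 6.25 FPKM (-0.52 ± 0.05, adjusted p = 0.00018) and GINS1 fell by 0.25. CDC45 (-0.04), MCM10 (-0.06), GINS2 (-0.13) and GINS3 (-0.22) were not called.

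Calls differed between polymerase subunits of the same enzyme, and differences between subunits were not tested. Of polymerase delta, the accessory subunits POLD3 and POLD2 fell while the catalytic subunit POLD1 was not called. POLD3 went from 17.9 and 17.5 FPKM to 10.2 and 9.61 FPKM (-0.78 ± 0.06, adjusted p = 5.0e-05) and POLD2 from 19.9 and 19.4 FPKM to 12.1 and 11.4 FPKM (-0.70, adjusted p = 2.1e-05), whereas POLD1 stayed between 19.6 and 20.6 FPKM in all 4 parental libraries. Of polymerase epsilon, the catalytic subunit POLE was higher, at 6.68 and 6.85 FPKM with DMSO and 10.1 and 10.3 FPKM with DAC (0.52 ± 0.05, adjusted p = 0.00019), and POLE2 was not called (0.07). Primase followed the general fall, with -0.50 for the catalytic subunit PRIM1 and -0.16 for PRIM2. POLA1, the catalytic subunit of polymerase alpha, fell by 0.30 and POLA2 was not called (0.06). The POLA1 call was lost without parental DMSO replicate 1 or parental DAC replicate 1, and that of PRIM2 with only the 4 parental libraries in the fit and without parental DMSO replicate 2 or either parental DAC replicate.

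PCNA and 4 of the 5 subunits of RFC, the complex that opens the clamp and places it on DNA, were lower. RFC3 went from 17.5 and 17.8 FPKM to 9.85 and 10.6 FPKM (-0.74 ± 0.04, adjusted p = 1.4e-05), and RFC4 from 20.1 and 23.0 FPKM to 14.0 and 11.9 FPKM (-0.70, adjusted p = 0.00085). PCNA itself went from 65.9 and 68.6 FPKM to 56.2 and 53.6 FPKM, a smaller fall of 0.29. RFC5 and RFC1 fell by 0.39 and 0.30, while RFC2 was not called (-0.03, interval from -0.11 to 0.05). Of the genes that join Okazaki fragments, the ligase LIG1 went from 9.52 and 10.5 FPKM to 7.67 and 8.19 FPKM (-0.30, adjusted p = 0.0036), and the flap endonuclease FEN1 from 53.3 and 53.4 FPKM to 58.5 and 58.8 FPKM, which was not called (0.13, adjusted p = 0.06).

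RPA, the trimer that coats single-stranded DNA, split by subunit. RPA3 fell from 8.75 and 9.28 FPKM to 5.84 and 6.02 FPKM (-0.53 ± 0.07, adjusted p = 0.00078), and RPA2 rose from 30.1 and 25.7 FPKM to 35.2 and 35.8 FPKM (0.34 ± 0.07, adjusted p = 0.0048). RPA1, the largest subunit, was not called (0.08). Among the fork protection factors, TIMELESS fell from 24.3 and 24.6 FPKM to 20.1 and 21.1 FPKM (-0.23, adjusted p = 0.0021). Its partner TIPIN was called higher by 0.19, a call that each other scaling tried removed. It was also lost without parental DMSO replicate 1 or parental DAC replicate 2. CLSPN, which links the fork to the checkpoint kinase CHEK1, was not called (-0.06). Both CAF-1 subunits fell, CHAF1B from 5.89 and 5.55 FPKM to 4.28 and 3.86 FPKM (-0.41, adjusted p = 0.0016) and CHAF1A by 0.19.

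**Figure D2:**
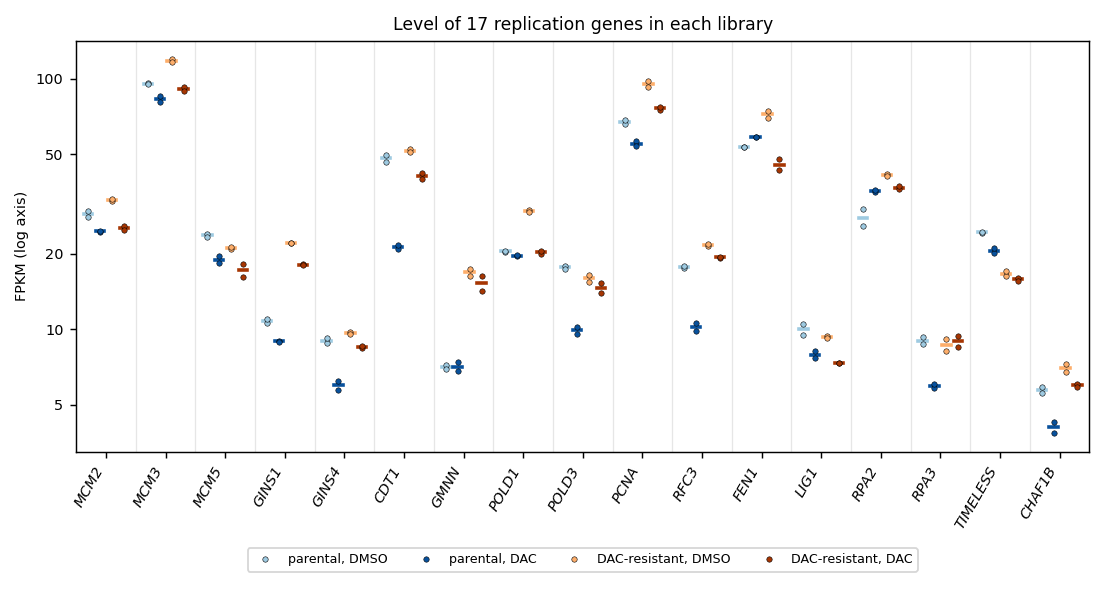
FPKM on a log axis in each of the 8 libraries for the 17 genes whose library values are given by rule. Points are libraries and bars are means of the 2 libraries of a group, with parental cells in blue, DAC-resistant cells in orange and brown, and DAC in the darker shade. CDT1 is at 20.9 and 21.6 FPKM in parental cells with DAC and at 39.6 FPKM or more elsewhere, and GMNN is at 7.39 FPKM or less in parental cells and at 14.3 FPKM or more in DAC-resistant cells.

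In DAC-resistant cells, DAC lowered replication genes too, with FEN1 rather than CDT1 falling furthest and the whole helicase ring among the genes that fell. With limma, 21 of 43 genes were lower and 22 were not called. None was called higher, also by limma voom on the recovered reads, and none was higher at an unadjusted p under 0.05. Over all genes tested, 5.35% were lower and 5.88% higher. The median log2 fold change was -0.21 over the replication genes and 0.01 over all genes tested, and the fold change was negative in 41 of 43 genes, the exceptions being RPA3 (0.05) and RFC4 (0.03). The summed level of the genes was 1114 and 1097 FPKM with DMSO and 912 and 901 FPKM with DAC. The count of lower genes was 13 without DAC-resistant DAC replicate 2, when 1.52% of all genes tested were lower, and lay between 14 and 20 without each of the other libraries. It was 15 with no filter on low values, which removed the calls of ORC6, CDC45, POLA1, LIG1, MCM5 and CLSPN. With only the 4 DAC-resistant libraries in the fit it was 14, and the call of POLE was lost as well. Without a trend in limma's moderation it was 17, with ORC6, CDC45, MCM5 and CLSPN not called. Among all genes fitted, 1.00% were lower with no filter, 1.34% with only those 4 libraries and 3.07% without a trend. The ORC6 call was also lost under TPM and quantile normalization.

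All 6 subunits of the MCM2 to MCM7 ring fell in DAC-resistant cells. MCM4 fell the most, from 54.0 and 53.0 FPKM to 40.0 and 39.6 FPKM (-0.42 ± 0.03, adjusted p = 0.0013). MCM3 went from 119 and 116 FPKM to 92.4 and 89.6 FPKM (-0.37) and MCM2 from 32.4 and 33.1 FPKM to 25.7 and 24.9 FPKM (-0.36), with the groups apart for both. MCM7, MCM5 and MCM6 fell by 0.32, 0.29 and 0.21. MCM10, which joins the helicase when it is activated, fell by 0.51 (adjusted p = 0.0043), CDC45 by 0.29 and GINS1 by 0.28, and GINS2, GINS3 and GINS4 were not called. The MCM5 call was lost without either DAC-resistant DMSO replicate or DAC-resistant DAC replicate 2, and the CDC45 call without any of the 4 DAC-resistant libraries.

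The catalytic subunits of the 3 replicative polymerases fell, and none of their other subunits was called, with no test of the differences between subunits. POLD1 went from 30.0 and 29.3 FPKM to 20.1 and 20.6 FPKM (-0.52 ± 0.03, adjusted p = 0.00061), POLE from 6.74 and 7.08 FPKM to 5.41 and 5.01 FPKM (-0.35) and POLA1 from 5.20 and 5.40 FPKM to 4.15 and 3.81 FPKM (-0.34). POLD2, POLD3, POLE2, POLA2, PRIM1 and PRIM2 were not called, with log2 fold changes from -0.23 for POLA2 to -0.01 for POLD2. FEN1 had the largest fall of all 43 genes, from 74.6 and 69.9 FPKM to 47.7 and 43.2 FPKM (-0.66 ± 0.05, adjusted p = 0.0014). LIG1 went from 9.41 and 9.25 FPKM to 7.37 FPKM in both libraries (-0.30). The POLE call was lost without DAC-resistant DMSO replicate 2 or DAC-resistant DAC replicate 2, and the calls of POLA1 and LIG1 without any of the 4 DAC-resistant libraries.

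PCNA fell from 97.6 and 92.7 FPKM to 75.1 and 77.1 FPKM (-0.32, adjusted p = 0.0059), and RFC2 by 0.42 (adjusted p = 0.0014) as the only called subunit of its loader. The licensing factors CDT1, ORC6 and CDC6 fell by 0.33, 0.32 and 0.31, with CDT1 at 52.3 and 50.8 FPKM in DMSO and 42.0 and 39.6 FPKM in DAC. GMNN, ORC1 and CDC7 were not called (-0.13, -0.17 and -0.03). CHAF1A fell by 0.34, CHAF1B was not called (-0.20, adjusted p = 0.092), and CLSPN fell by 0.32. No RPA subunit was called, with adjusted p-values from 0.19 to 0.92 and unadjusted p-values of 0.052 or more. The CDT1 call was lost without DAC-resistant DMSO replicate 1 or DAC-resistant DAC replicate 2, and the calls of ORC6 and CLSPN without each of several libraries in turn.

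The DAC effects of both lines, which share no library, were then set against each other. Of the genes lower in either line, 12 were lower in both: MCM2, MCM3, MCM5, MCM6, GINS1, CDT1, CDC6, ORC6, POLA1, PCNA, LIG1 and CHAF1A. They make up 48% of the 25 genes lower in parental cells and 57.1% of the 21 lower in DAC-resistant cells. Over all genes tested 206 were lower in both, which is 5.74% of those lower in parental cells and 25.9% of those lower in DAC-resistant cells. A further 13 passed the test as lower in parental cells and not in DAC-resistant cells, and 9 the other way round, which does not by itself show that the effects differ. PRIM2, for example, passed the test in the parental line at -0.16 but not in the DAC-resistant line at -0.14. Across the 43 genes, which are not independent of each other, the fold changes of the lines had a Spearman correlation of -0.32 and a Pearson correlation of -0.30, against -0.13 and -0.10 over all genes tested.

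**Figure D3:**
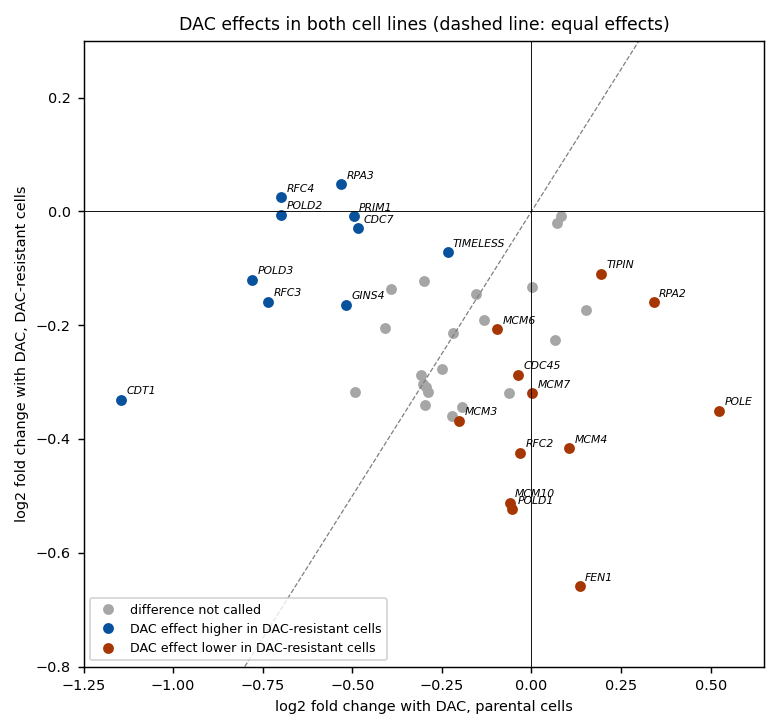
Log2 fold change with DAC in parental cells (horizontal) against that in DAC-resistant cells (vertical) for the 43 replication genes, with a dashed line where both would be equal. Coloured and named genes have an adjusted p under 0.05 for the difference between the effects, 10 with a higher value in DAC-resistant cells (blue) and 12 with a lower one (brown). CDT1 lies far to the left at -1.15 and FEN1 lowest at -0.66.

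The difference itself was tested as the interaction of cell line and drug, and 22 of 43 genes were called. For 10 genes the DAC effect was higher in DAC-resistant cells, that is less negative or, for RFC4 and RPA3, positive but not called. This compares with 20.9% of all genes tested. For 12 genes it was lower, against 28.4%. Both shares of the members are near those of all genes. The median of the difference was -0.04 over the replication genes and -0.05 over all genes tested, and for the replication genes its sign turned under each other scaling, with values of 0.018 to 0.039. Genes that fell more in parental cells were led by CDT1 (0.81 ± 0.06), RFC4 (0.72), POLD2 (0.69), POLD3 (0.66), RPA3 and RFC3 (0.58 each), PRIM1 (0.49) and CDC7 (0.45). Genes with the lower effect in DAC-resistant cells were led by POLE (-0.87 ± 0.07), FEN1 (-0.79), MCM4 (-0.52), RPA2 (-0.50), POLD1 (-0.47), MCM10 (-0.45) and RFC2 (-0.39). POLE and MCM4 were called in opposite directions in the lines, although the MCM4 rise in parental cells depended on the scaling. The PRIM1 call was lost with no filter on low values and without parental DMSO replicate 1, parental DAC replicate 1 or any of the 4 DAC-resistant libraries. For PCNA, GINS1, CDC6, LIG1 and MCM5 the difference was between -0.03 and 0.02 with intervals that all lay between -0.19 and 0.21.

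Without drug, GMNN and GINS1 were the replication genes that rose the most in DAC-resistant cells. In DMSO 23 of 43 genes were higher, 4 were lower (MCM7, PRIM1, TIMELESS and CLSPN) and 16 were not called, while 31.3% of all genes tested were higher and 26.2% lower. The median log2 fold change was 0.18 over the replication genes and 0.02 over all genes tested, and that of the replication genes was 0.068 under quantile normalization and 0.085 under upper-quartile scaling. GMNN passed the stricter thresholds, applied here to log2(FPKM + 1), which 4.45% of all genes tested passed in the higher direction. GINS1 did not pass on this scale, although by FPKM it was at 204% of the parental level. Under quantile normalization, upper-quartile scaling and voom, 9 genes were lower in place of 4, and the higher genes numbered 19, 18 and 22 in place of 23. Of all genes tested, 27.6%, 31.7% and 29.7% were lower and 28.2%, 25.6% and 31.3% higher under these settings. This comparison uses the same parental DMSO libraries as the DAC effect in parental cells and the same DAC-resistant DMSO libraries as the DAC effect in DAC-resistant cells, so their values are not independent.

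**Figure D4:**
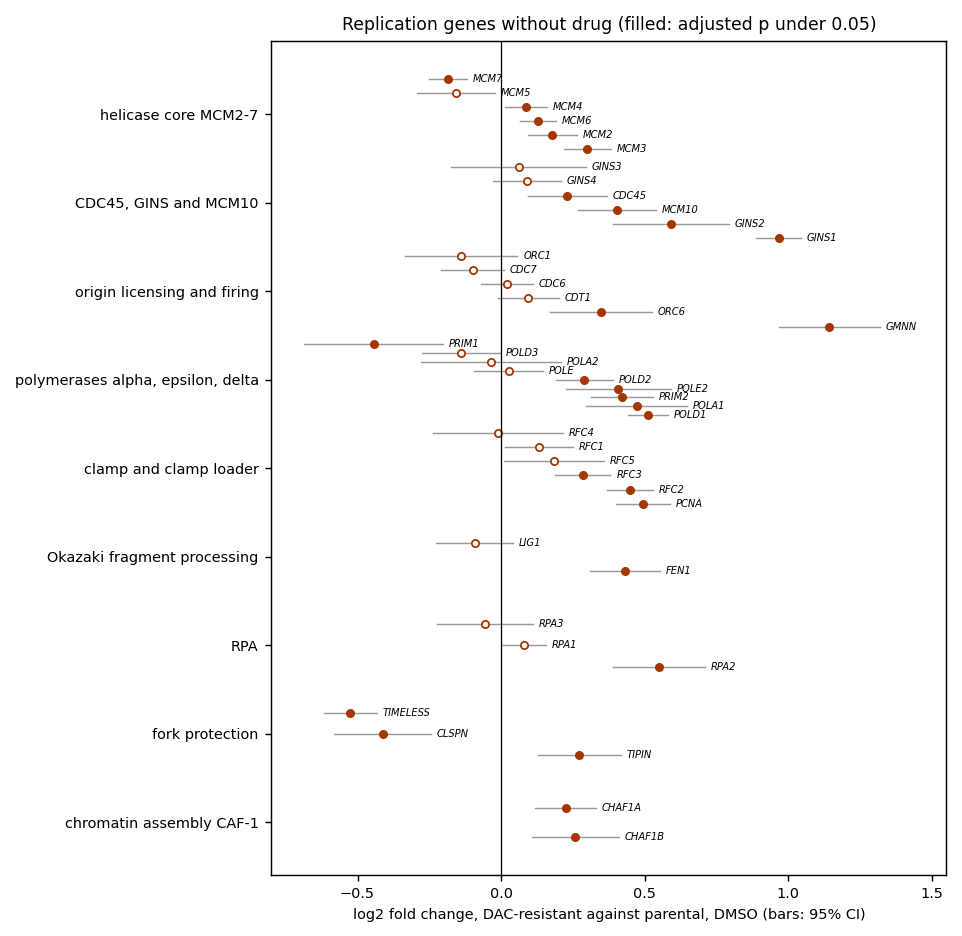
Log2 fold change of DAC-resistant against parental cells, both in DMSO, for the 43 replication genes grouped by role, with 95% confidence intervals as bars and 2 libraries per group. Filled points have an adjusted p under 0.05. GMNN and GINS1 lie farthest to the right at 1.14 and 0.97, and TIMELESS and PRIM1 farthest to the left at -0.53 and -0.44.

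GMNN showed the largest difference, with 7.22 and 6.97 FPKM in parental cells and 17.4 and 16.3 FPKM in DAC-resistant cells (1.14 ± 0.07, adjusted p = 3.0e-05), or 238% of the parental level. Its target CDT1 was not called, at 49.8 and 46.6 FPKM against 52.3 and 50.8 FPKM (0.10, interval from -0.01 to 0.20). The CDT1 to GMNN ratio of the DAC-resistant line was 3.0 and 3.1 under DMSO and 2.9 and 2.4 under DAC, near the 3.1 and 2.9 of parental cells with DAC. ORC6 was higher by 0.35, and ORC1, CDC6 and CDC7 were not called. GINS1 rose without overlap, from 10.6 and 11.0 FPKM to 22.1 FPKM in both libraries (0.97 ± 0.03, adjusted p = 2.4e-06). GINS2, MCM10 and CDC45 were higher by 0.59, 0.40 and 0.23, and GINS3 (0.06) and GINS4 (0.09) were not called.

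Calls again differed between subunits of single complexes, with no test of the differences between subunits. Of polymerase delta, POLD1 was higher, from 20.4 and 20.6 FPKM to 30.0 and 29.3 FPKM (0.51 ± 0.03, adjusted p = 1.8e-05), POLD2 was higher by 0.29 and POLD3 was not called (-0.14). Of polymerase alpha and primase, POLA1 and PRIM2 were higher by 0.47 and 0.42, PRIM1 was lower (-0.44, adjusted p = 0.0089) and POLA2 was not called (-0.04). POLE2 was higher by 0.41 and POLE was not called (0.03). PCNA went from 65.9 and 68.6 FPKM to 97.6 and 92.7 FPKM (0.49 ± 0.04, adjusted p = 7.1e-05), and RFC2 and RFC3 were higher by 0.45 and 0.28, with RFC1, RFC4 and RFC5 not called. FEN1 rose from 53.3 and 53.4 FPKM to 74.6 and 69.9 FPKM (0.43, adjusted p = 0.00046) and LIG1 was not called (-0.09). RPA2 rose from 30.1 and 25.7 FPKM to 41.5 and 40.8 FPKM (0.55, adjusted p = 0.00054), whereas RPA1 (0.08) and RPA3 (-0.06) were not called.

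In the helicase ring MCM3, MCM2 and MCM6 were higher by 0.30, 0.18 and 0.13, MCM7 was lower (-0.19, adjusted p = 0.0013) and MCM5 was not called (-0.16, adjusted p = 0.051). MCM4 was called higher by 0.09, close to the threshold (adjusted p = 0.045). The call was lost under voom and its direction turned under quantile normalization and upper-quartile scaling, which also removed the calls of MCM2 and MCM6. TIMELESS was at 24.3 and 24.6 FPKM in parental cells and at 16.3 and 17.0 FPKM in DAC-resistant cells (-0.53 ± 0.04, adjusted p = 5.3e-05). CLSPN was lower too (-0.41, adjusted p = 0.0024), and TIPIN was higher by 0.27. CHAF1B was at 5.89 and 5.55 FPKM against 7.29 and 6.78 FPKM (0.26, adjusted p = 0.012) and CHAF1A was higher by 0.22. The calls of CDC45 and CHAF1B were lost under upper-quartile scaling and without parental DMSO replicate 2 or DAC-resistant DMSO replicate 1, and that of CDC45 also under quantile normalization.

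With DAC in both lines, 20 of 43 genes were higher in DAC-resistant cells, 8 were lower and 15 were not called, beside 32% higher and 35.1% lower among all genes tested. The median was 0.06 over the replication genes and -0.03 over all genes tested. Over the replication genes it was 0.19 under TPM and 0.11 under voom. Leaving out a library also moved it, as given in the last section. GMNN again passed the stricter thresholds, which 5.29% of all genes tested passed in the higher direction. GINS1 and POLD2 did not pass on the log2(FPKM + 1) scale, although by FPKM they were at 202% and 206% of the parental level. The largest differences in the higher direction were 1.01 for GMNN, 0.98 for POLD2, 0.94 for GINS1, 0.91 for CDT1, 0.86 for RFC3 and 0.71 for RFC4. POLE (-0.85), CLSPN (-0.67), MCM7 (-0.51), ORC1 (-0.47), MCM4 (-0.44), FEN1 (-0.36), TIMELESS (-0.36) and POLA2 (-0.33) were lower. The POLA2 call (adjusted p = 0.026) was lost with no filter, under TPM and quantile normalization, with only the 4 DAC libraries in the fit, and without parental DAC replicate 1 or DAC-resistant DAC replicate 2. The call of MCM3 (0.13) was lost under quantile normalization, where its direction also turned, and without DAC-resistant DAC replicate 1. That of POLE2 (0.32) was lost without the same library. PCNA and 4 of the 5 RFC subunits were higher, all but RFC2 (0.06).

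Other genes of DNA replication, written as a separate list of 31, gave 3 higher and 13 lower with DAC in parental cells, beside 33.6% and 24.1% of all genes tested. The clamp unloader ATAD5 (-0.82), the ribonuclease subunit RNASEH2B (-0.80) and DTL, which marks CDT1 for degradation (-0.76), led those that fell. With DAC in DAC-resistant cells 3 were higher and 5 lower, beside 5.88% and 5.35% of all genes tested, the lower ones led by the origin firing and fork factors RECQL4 (-0.53), TONSL (-0.50) and TICRR (-0.42). In the comparison of the lines in DMSO 6 were higher and 10 lower, beside 31.3% and 26.2% of all genes tested. Of 10 replication checkpoint genes, 3 were higher and 3 lower with DAC in parental cells, shares near those of all genes tested, and 1 was lower in DAC-resistant cells, the phosphatase gene CDC25A (-0.21).

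Of 25 genes of G1/S control, 6 were higher and 13 lower with DAC in parental cells, beside 33.6% higher and 24.1% lower among all genes tested. There MYC fell by 0.88 and MYBL2 by 0.62 and the cyclin gene CCND1 rose by 1.48. In DAC-resistant cells, where 5.88% of all genes tested were higher and 5.35% lower, 2 of the 25 were higher and 4 were lower: E2F1 (-0.39), E2F2 (-0.28), SKP2 (-0.19) and MYBL2 (-0.18). Among the CDK inhibitor genes tested, 5 of 7, CDKN1C (2.33), CDKN1A (0.92) and CDKN2D (0.61) rose with DAC in parental cells and CDKN2C fell by 0.30, while in DAC-resistant cells limma called none, at an unadjusted p under 0.05 as well. Of 20 mitosis genes, 5 were higher and 10 lower with DAC in parental cells, and 5 higher and 2 lower with DAC in DAC-resistant cells, to be read against the same shares of all genes tested. Between the lines with DMSO, 14 were higher and 2 lower in DAC-resistant cells, beside 31.3% and 26.2% of all genes tested.

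**Figure D5:**
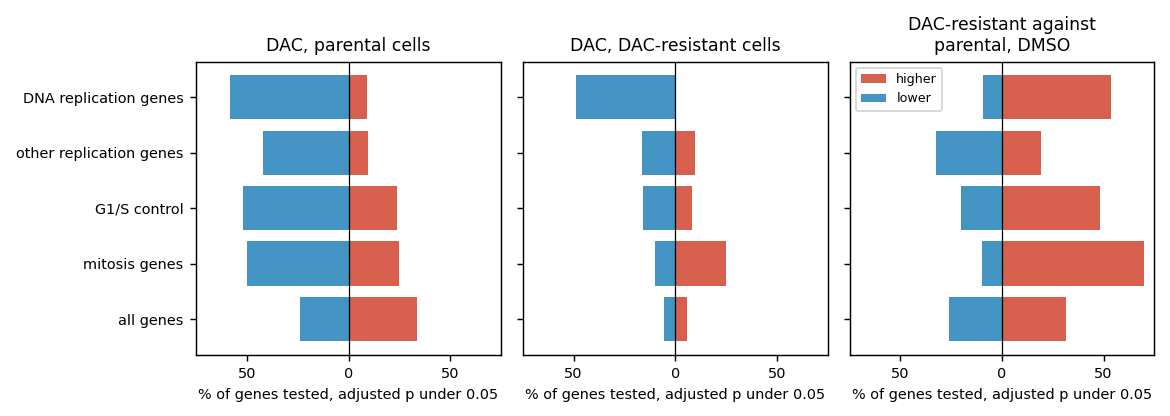
Share of the genes tested in each list, in percent, that were higher (red, to the right) or lower (blue, to the left) at an adjusted p under 0.05, for DAC in parental cells, DAC in DAC-resistant cells and DAC-resistant against parental cells in DMSO. The bottom bar of each panel gives all genes tested. The 43 replication genes have 25 lower and 4 higher in the left panel, 21 lower in the middle panel, and 23 higher and 4 lower in the right panel.

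Genes with and without E2F letters in the promoter window were compared as a description, without a test. With DAC in DAC-resistant cells 8 of the 11 genes with the letters were lower, with a median of -0.32. Of the 26 without, 11 were lower, with a median of -0.19, beside 5.35% of all genes tested. With DAC in parental cells 7 of 11 and 14 of 26 were lower, with medians of -0.20 and -0.21, beside 24.1% of all genes tested. In DAC-resistant against parental cells with DMSO, 6 of 11 and 15 of 26 were higher, with medians of 0.13 and 0.23, beside 31.3% of all genes tested.

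Markers of other cell types stayed low next to the monocytic list. The 3 T cell markers summed to 0 to 0.73 FPKM, the 3 erythroid markers to 3.05 FPKM or less and the 4 epithelial and stromal markers to 0.75 to 7.75 FPKM, mostly COL1A1. The sum of 6 B and plasma cell markers, with JCHAIN as the largest value, was 2.63 and 2.90 FPKM in parental cells with DMSO, 8.02 and 8.24 FPKM in the same line with DAC, and 6.22 to 7.67 FPKM in the DAC-resistant line. The monocytic markers did not all move the same way with DAC in parental cells. LYZ and CD14, chosen after their values were seen, went from 11.4 and 12.6 FPKM to 46.7 and 48.9 FPKM and from 1.45 and 1.58 FPKM to 19.0 and 20.8 FPKM. CD33 went from 9.92 and 9.74 FPKM to 8.10 and 7.61 FPKM, and PTPRC from 57.7 and 55.1 FPKM to 58.0 and 59.0 FPKM. The part of these shifts in the replication results was not tested.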

How the data were processed

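RNA was sequenced from 8 libraries, 2 in each of 4 groups named from the labels. Per the submitters' processing notes and the paper's methods, the authors trimmed reads with Cutadapt 1.9.1, aligned them to hg38 with HISAT2 2.1.0, sorted them with SAMtools 1.6 and counted them with HTSeq 0.13.5 on Ensembl GRCh38 genes. Whether counting used strand is not given in the sources used here. The authors deposited FPKM values multiplied by 1000, which were divided by 1000. Rows of 1264 repeat families were not used. Reads were recovered from the FPKM steps with GENCODE v44 exon lengths, and 89.1% to 89.4% of values under 1000 reads came out whole within 0.05. These reads gave the depths and entered a voom alternative.

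The 14899 genes that reached 1 FPKM in 2 or more libraries were fitted as log2(FPKM + 1) in R 4.3.3 by limma 3.58.1. A single fit held the means of all 4 groups, and variances were moderated with a trend on expression (2.5 prior and 4 residual degrees of freedom). The fit was tested on simulated data. A fold change on this scale understates that of low genes. A call is a Benjamini-Hochberg adjusted p under 0.05 over all genes tested. An exact permutation test of 2 against 2 libraries cannot go below p = 0.333. Replicates differed by more than sampling noise. The p-values measure the spread between cultures of 1 line each.

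The members and lists were chosen with earlier results of these data known. Library values are given, by rule, for the genes with the largest fold change of each role with DAC in parental cells and between the lines in DMSO, for genes past the stricter thresholds, and for MCM2 and PCNA. Library values of POLD2, POLE, RFC4, MCM4 and POLA1 were added after seeing them. Searches of protein sequences were not run. One cell type marker of the design is not reported here, and its list was summed without it. Alternatives were a pseudocount of 0.1, no filter, a mean of at least 5 FPKM, TPM, quantile and upper-quartile scaling, voom with TMM on recovered reads, a replicate block, only the 4 libraries compared, no trend, and leaving out each library.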

Additional observations from a re-analysis of the deposited data

Results flagged for a closer look

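For 22 of the 43 replication genes, the interaction of drug and cell line was called by limma (adjusted p under 0.05 over all genes tested). Of these 10 were higher and 12 lower, a share near that of all genes tested, of which 20.9% were higher and 28.4% lower. Values are the log2 fold change in DAC-resistant cells minus that in parental cells, with 2 libraries per group. Positive differences were 0.81 for CDT1, 0.72 for RFC4, 0.69 for POLD2, 0.66 for POLD3, 0.58 for RPA3, 0.58 for RFC3, 0.49 for PRIM1, 0.45 for CDC7, 0.35 for GINS4 and 0.16 for TIMELESS. For these genes the fold change in DAC-resistant cells was less negative, or for RFC4 and RPA3 positive but not called. Negative differences were -0.87 for POLE, -0.79 for FEN1, -0.52 for MCM4, -0.50 for RPA2, -0.47 for POLD1, -0.45 for MCM10, -0.39 for RFC2, -0.32 for MCM7, -0.30 for TIPIN, -0.25 for CDC45, -0.17 for MCM3 and -0.11 for MCM6. The calls of 16 of these genes held under every alternative run, and those of CDC45, MCM3, MCM6, PRIM1, TIMELESS and TIPIN did not.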

How the results depend on the processing

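Most results kept their direction and their side of the threshold. Of the member calls, 24 of 29 for DAC in parental cells, 13 of 21 for DAC in DAC-resistant cells, 22 of 27 between the lines in DMSO, 25 of 28 between the lines in DAC and 16 of 22 for the difference between the DAC effects held under every alternative run. For DAC in parental cells, 2 genes were higher in place of 4 under TPM, quantile normalization, upper-quartile scaling and voom, and 2 to 5 when a library was left out. The median moved from -0.22 to -0.25 under TPM, -0.31 under quantile normalization, -0.32 under upper-quartile scaling and -0.30 under voom, and lay between -0.24 and -0.20 when a library was left out. Quantile normalization moved the median of all genes tested by -0.11 in that comparison and by 0.10 for the difference between the effects, and TPM moved it by 0.11 between the lines in DAC. For DAC in DAC-resistant cells the median of -0.21 became -0.28 with a pseudocount of 0.1, -0.24 under TPM and -0.29 under voom, and between -0.27 and -0.21 when a library was left out, with 13 to 20 genes lower. Between the lines in DMSO the lower genes numbered 9 in place of 4 under quantile normalization, upper-quartile scaling and voom, and the median of 0.18 became 0.25 under TPM, 0.068 under quantile normalization, 0.085 under upper-quartile scaling and 0.15 under voom, and 0.14 to 0.19 when a library was left out. Between the lines in DAC the median of 0.06 became 0.079 with a pseudocount of 0.1, 0.19 under TPM, 0.051 under quantile normalization and 0.11 under voom, and 0.045 to 0.11 when a library was left out, and the log2 fold change of MCM3 reversed from 0.13 to -0.046 under quantile normalization. The median difference between the DAC effects moved from -0.04 to -0.029 with a pseudocount of 0.1, 0.018 under TPM, 0.033 under quantile normalization, 0.039 under upper-quartile scaling and 0.031 under voom, and lay between -0.066 and -0.023 when a library was left out. The cause of these shifts was not tested. The replicate numbers share only a number, since same-numbered libraries correlated between -0.02 and 0.02 across genes. With the replicate block, 5 genes were higher and 25 lower with DAC in parental cells, beside 32.8% and 23.3% of all genes tested. In DAC-resistant cells 18 were lower, beside 4.02% of all genes tested. Between the lines in DMSO 22 were higher and 5 lower, beside 30.5% and 25.7% of all genes. In DAC 20 were higher and 8 lower, beside 31.4% and 34.5%. For the difference between the DAC effects the counts were 9 and 10, beside 20.1% and 27.2%. With 2 libraries per group a member not called is not shown to be unchanged.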
